A study of Rattus norvegicus with 7 samples.

Results

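The collagen genes of rat heart cell cultures are described here in 7 RNA libraries, 6 made after transfection of a human microRNA (miRNA) and 1 after a nematode miRNA. They were chosen by name, as the protein-coding genes whose symbol has the form of a collagen alpha chain. The rule found 41 of the 17141 genes in the table: 11 fibrillar collagens, 7 basement membrane collagens and 23 others. The 41 stand for 40 symbols, since Col23a1 has more than 1 entry, and 1 further symbol of this form, Col6a3, was left out because its listed gene type is processed transcript. The cells were ventricular cardiomyocytes of wild type Wistar rats at postnatal day 0, kept as a primary culture. Each culture received 1 synthetic miRNA at 25 nM, and total RNA was taken 72 h after transfection for an mRNA library. The miRNAs were miR-302d-3p and miR-373-3p, which are known to share a seed, as well as miR-33b*, miR-1825, miR-199a-3p and miR-590-3p, against cel-miR-67, which the deposited ratios use as denominator and which is treated here as the control. The study asked, per its title, which pathways are common to miRNAs that make cardiomyocytes divide. Before transfection, cells that attached to plastic were removed, and the labels describe what was left as mostly, not wholly, cardiomyocytes. How many animals gave the cells of 1 library is not given in the sources used here, and no group has a second library, so no difference below has a replicate check and no p-value is given.

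Collagens are the main structural proteins outside cells, each molecule a triple helix of alpha chains. Type I and type III form the thick and thin fibrils of heart muscle, which are made mostly by fibroblasts, while type IV forms the sheet-like network of the basement membrane around each cardiomyocyte and vessel. Chains are hydroxylated, glycosylated and folded in the endoplasmic reticulum, trimmed and cross-linked outside the cell, and sensed through integrins and discoidin domain receptors.

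Levels are RPKM, read numbers corrected for the length of the gene and the size of the library, so they can be compared between genes. The recovered reads over the listed genes numbered 22616067 to 31963293 per library. Mitochondrial genes took 27.7% of them with miR-199a-3p to 41.4% with miR-590-3p, against 41.0% with cel-miR-67. The library size used in the RPKM was not this total. The listed reads were 85.5% of that size with miR-199a-3p and 110% with cel-miR-67, and scaling to listed reads replaces it. Changes are log2 ratios of RPKM + 1 in a miRNA library to the same for cel-miR-67, which understate the change of low genes. They were counted over 12330 genes whose mean over the 7 libraries reached 1 RPKM, called measured. A change of at least 2-fold is a log2 value of at least 1 or at most -1. All 6 comparisons share the single cel-miR-67 library, so a low or high value in that library moves all 6 the same way. Scaling every library to its total of listed reads raised the median of all measured genes to 0.31 with miR-199a-3p, 0.17 with miR-373-3p, 0.23 with miR-302d-3p and 0.12 with miR-1825, where it was between -0.003 and 0.015 with the deposited values.

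Of the 41 collagen genes 23 were measured: 8 of 11 fibrillar, 7 of 7 basement membrane and 8 of 23 others. The highest were the chains of fibrils and of the type IV network. Col4a2, Col3a1, Col1a2, Col4a1 and Col5a2 stood above 100 RPKM in each of the 7 libraries and together made up 68.4% to 72.5% of the summed collagen RPKM. A further 12 had a mean of 10 to 100 RPKM, and 6 a mean of 1 to 10 RPKM. Summed over all 41 genes, collagens stood at 1732 RPKM with miR-199a-3p, 1548 with miR-590-3p, 1580 with miR-373-3p, 1525 with miR-302d-3p, 1392 with miR-33b* and 1526 with miR-1825, against 1915 RPKM with cel-miR-67. The share of listed reads that fell in collagen genes was 1.06% with miR-199a-3p, 0.757 with miR-590-3p, 0.878 with miR-373-3p, 0.887 with miR-302d-3p, 0.735 with miR-33b* and 0.812 with miR-1825, against 0.919% with cel-miR-67. The summed RPKM was thus highest with cel-miR-67, while the share of reads was highest with miR-199a-3p. With the mitochondrial reads left out of the total, the share was 1.18% with miR-33b* to 1.47% with miR-199a-3p, against 1.56% with cel-miR-67.

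**Figure D1:**
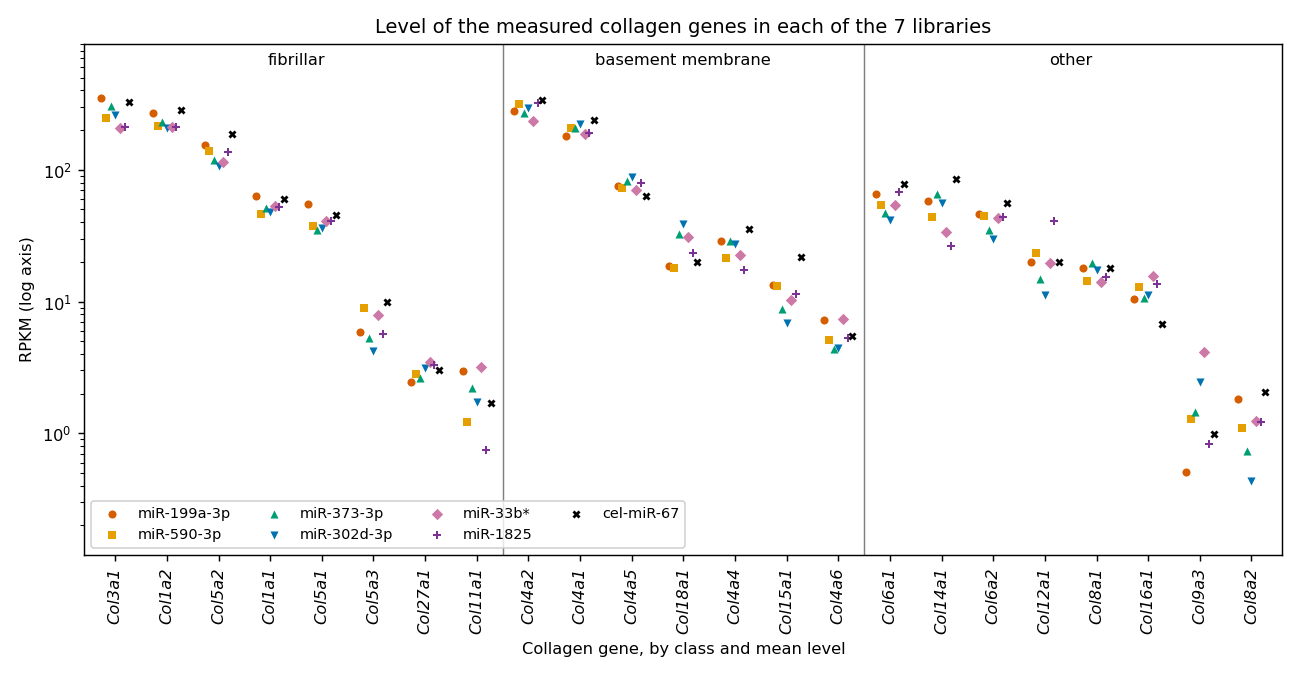
RPKM on a log axis of the 23 measured collagen genes in each of the 7 libraries, 1 point per library, ordered by class and mean level. Points of 1 gene lie close together for most fibrillar and type IV chains, and are spread widest for Col9a3, Col8a2, Col11a1 and Col12a1.

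Collagens were on the whole slightly lower after the miRNAs than with cel-miR-67. The median log2 change of the 23 measured members was -0.11 with miR-199a-3p, -0.27 with miR-590-3p, -0.27 with miR-373-3p, -0.32 with miR-302d-3p, -0.33 with miR-33b* and -0.21 with miR-1825, beside medians between -0.003 and 0.015 for all measured genes. With libraries scaled to all listed reads the collagen median turned to 0.13 with miR-199a-3p, beside 0.31 for all genes, and was below 0 after the other 5 miRNAs. Members below 0 numbered 14 of 23 with miR-199a-3p, 19 with miR-590-3p, 17 with miR-373-3p, 17 with miR-302d-3p, 16 with miR-33b* and 18 with miR-1825. Among all measured genes the share below 0 was 50.3% with miR-199a-3p, 50.2% with miR-590-3p, 49.1% with miR-373-3p, 48.0% with miR-302d-3p, 50.5% with miR-33b* and 49.5% with miR-1825. Most of these differences were small, and 17 of the 23 members (73.9%) lay within 2-fold of cel-miR-67 in all 6 libraries. Members were still at least 2-fold lower more often than all measured genes, 17.4% (4 genes) in at least 1 library beside 5.44%. At least 2-fold higher were 8.7%, which is only 2 genes, beside 4.36%. By pairs of a member and a library, 5.07% were at least 2-fold lower and 1.45% higher. In single libraries 0.762% to 2.11% of all genes were lower and 1.04% to 2.00% higher, so the higher share was not above that of all genes.

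Changes of at least 2-fold were few. None of the 23 members passed 2-fold in either direction with miR-199a-3p, where 1.52% of all measured genes were at least 2-fold lower and 1.04% higher, or with miR-590-3p, where these shares were 0.762% and 1.51%. With miR-373-3p 1 member, Col15a1, was at least 2-fold lower, beside 1.87% of all genes, and none was higher, beside 1.15%. With miR-302d-3p 3 members were lower, Col15a1, Col5a3 and Col8a2, which is 13.0% of the 23 beside 2.11% of all genes, and none was higher, beside 1.31%. The miR-33b* library had 2 lower, Col14a1 and Col15a1, beside 1.24%, and 2 higher, Col16a1 and Col9a3, beside 1.30%. With miR-1825 1 member, Col14a1, was lower, beside 1.63%, and none was higher, beside 2.00%. In all, 4 members were at least 2-fold lower in at least 1 library, where 5.44% of all genes were, and 2 were higher, where 4.36% were.

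Direction over the 6 libraries was mostly downward. Of the 23 members 11, or 47.8%, were below cel-miR-67 after every miRNA, beside 13.4% of all measured genes, and 2, or 8.70%, were above it after every miRNA, beside 13.9%. The 11 were Col1a2, Col5a2 and Col5a3 among the fibrillar collagens, Col4a1, Col4a2, Col4a4 and Col15a1 in the basement membrane class, and Col6a1, Col6a2, Col8a2 and Col14a1 among the others, and the 2 were Col4a5 and Col16a1. Scaled to all listed reads, 3 of the 11 remained below 0 in all 6, namely Col5a3, Col14a1 and Col15a1, and both of the higher genes remained above 0. With this scaling cel-miR-67 was the highest library for 13.0% of members, beside 3.88% of all measured genes. It was the lowest for 8.7% of members, beside 28.4%. Scaled to listed reads without mitochondrial genes, all 11 and both higher genes kept their direction. There cel-miR-67 was highest for 47.8% of members, beside 11.3% of all genes, and lowest for 8.7%, beside 16.6%. A stricter limit, at least 1.5-fold lower in all 6 libraries, was met by 1 member, Col15a1, beside 0.211% of all genes, and at least 1.5-fold higher in all 6 by 0 members, beside 0.584%. With a pseudocount of 5 in place of 1 both counts were 0, and with a pseudocount of 0.1 they were 1 lower and 1 higher. With scaling to all listed reads these counts were 0 lower and 1 higher, the higher gene being Col16a1. The share of all genes past these limits was computed only for the deposited values with a pseudocount of 1. The counts under the other settings therefore have no share to stand beside.

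**Figure D2:**
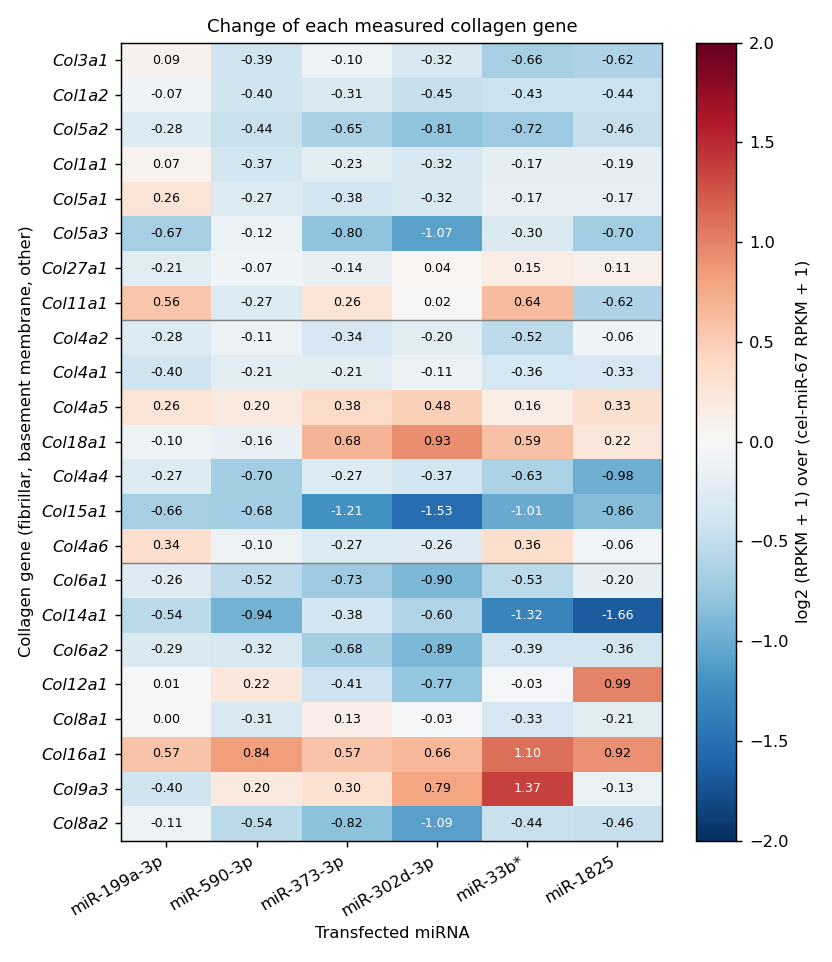
Log2 change against cel-miR-67 of the measured collagen genes, with genes down the page and the 6 miRNA libraries across. Col15a1 is at least 1.5-fold lower in every library with the deposited scaling, Col16a1 and Col4a5 are higher in every library, and Col12a1 and Col18a1 differ in direction between libraries.

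Fibrillar collagens were a little lower after 5 of the 6 miRNAs and level with cel-miR-67 with miR-199a-3p. Their median log2 change was 0.00 with miR-199a-3p, -0.32 with miR-590-3p, -0.27 with miR-373-3p, -0.32 with miR-302d-3p, -0.23 with miR-33b* and -0.45 with miR-1825, and with scaling to all listed reads it was 0.36 with miR-199a-3p, beside 0.31 for all genes, and kept its direction in the other 5. Col3a1 (ENSRNOG00000003357), the single chain of type III collagen, stood at 348 RPKM with miR-199a-3p, 249 with miR-590-3p, 304 with miR-373-3p, 262 with miR-302d-3p, 207 with miR-33b* and 213 with miR-1825, against 327 RPKM with cel-miR-67. The miR-33b* and miR-1825 libraries were lowest, and miR-199a-3p was the only library above cel-miR-67. The log2 change of Col3a1 was -0.66 with miR-33b* and -0.62 with miR-1825, and the change with miR-373-3p, -0.10, turned above 0 when scaled to all listed reads.

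Both chains of type I collagen were measured. Col1a2 (ENSRNOG00000011292), which encodes the alpha 2 chain, stood at 271 RPKM with miR-199a-3p, 215 with miR-590-3p, 229.5 with miR-373-3p, 207 with miR-302d-3p, 210.1 with miR-33b* and 209.8 with miR-1825, against 284 RPKM with cel-miR-67. Col1a1 (ENSRNOG00000003897), which encodes the alpha 1 chain, stood at 63.1 RPKM with miR-199a-3p, 46.1 with miR-590-3p, 51.2 with miR-373-3p, 47.9 with miR-302d-3p, 53.1 with miR-33b* and 52.5 with miR-1825, against 60.1 RPKM with cel-miR-67. As deposited, Col1a2 was highest with cel-miR-67 and lowest with miR-302d-3p, though with scaling to all listed reads its lowest library was miR-590-3p, at a log2 change of -0.38. Col1a1 was highest with miR-199a-3p and below cel-miR-67 after the other 5. The Col1a2 change of -0.07 with miR-199a-3p turned above 0 when scaled to all listed reads, and its other changes were -0.45 (miR-302d-3p) to -0.31 (miR-373-3p). For Col1a1 the changes lay between -0.37 with miR-590-3p and 0.07 with miR-199a-3p.

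Type V collagen, which sits inside type I fibrils and sets their diameter, was represented by all 3 of its chains. Col5a2 (ENSRNOG00000003736) stood at 155 RPKM with miR-199a-3p, 138 with miR-590-3p, 119 with miR-373-3p, 107 with miR-302d-3p, 114 with miR-33b* and 136 with miR-1825, against 188 RPKM with cel-miR-67. Col5a1 (ENSRNOG00000008749) stood at 54.9 RPKM with miR-199a-3p, 37.7 with miR-590-3p, 34.8 with miR-373-3p, 36.4 with miR-302d-3p, 40.6 with miR-33b* and 40.5 with miR-1825, against 45.7 RPKM with cel-miR-67. Col5a3 (ENSRNOG00000020525), a less abundant alternative chain, stood at 5.86 RPKM with miR-199a-3p, 8.98 with miR-590-3p, 5.25 with miR-373-3p, 4.19 with miR-302d-3p, 7.86 with miR-33b* and 5.71 with miR-1825, against 9.87 RPKM with cel-miR-67. As deposited, Col5a2 and Col5a3 were below cel-miR-67 after every miRNA and lowest with miR-302d-3p. Scaling to all listed reads put Col5a2 above cel-miR-67 with miR-199a-3p and made miR-33b* its lowest library, at a log2 change of -0.60, while Col5a3 kept both. Col5a1 was above it with miR-199a-3p and below it after the other 5. The log2 change of Col5a3 was -1.07 with miR-302d-3p, and its log2 ratio of read rates, which carries no pseudocount, was -1.24, with an interval of -1.36 to -1.11 (exact, 95%, counting error only). With miR-302d-3p Col5a2 had a log2 change of -0.81 and Col5a1 of -0.32.

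The 2 other measured fibrillar genes, both known mainly from cartilage, were low. Col11a1 was at 0.749 RPKM (miR-1825) to 3.18 RPKM (miR-33b*) after the miRNAs, against 1.69 RPKM with cel-miR-67, with log2 changes of -0.62 to 0.64. Col27a1 was at 2.47 RPKM (miR-199a-3p) to 3.47 RPKM (miR-33b*), against 3.02 RPKM. Its range over the 7 libraries was 0.37 on the log2 scale of RPKM + 1, the narrowest of any measured member. The added 1 narrows the range of so low a gene. Col4a1, at 181 to 239 RPKM, was next at 0.40, and without the added 1 its range was narrower than that of Col27a1.

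The basement membrane class combined slightly lower main type IV chains, a higher Col4a5, a lower Col15a1 and a Col18a1 that differed between libraries. The median log2 change of its 7 members was -0.27 with miR-199a-3p, -0.16 with miR-590-3p, -0.27 with miR-373-3p, -0.20 with miR-302d-3p, -0.36 with miR-33b* and -0.06 with miR-1825. Scaled to all listed reads these medians turned to 0.08 with miR-199a-3p, 0.04 with miR-302d-3p and 0.05 with miR-1825, and were below 0 after the other 3.

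The start regions of 4 members of this class are printed because the results turn on these pairs: Col4a1 and Col4a2, which are transcribed away from each other out of 1 shared region, and Col15a1 and Col18a1, related genes whose profiles differed. Each is a 300-base window, 250 bases before to 50 bases after the start of the gene, from RefSeq on build GRCr8, written along the strand of the gene. Capitals mark 3 motifs of many promoters, searched on both strands. These are the GC box, with the letters GGGCGG, then the box that is named after its letters CCAAT, and last the TATA box, taken here as TATAAA. Positions are chr16:84885347-84885646 (+ strand) for Col4a1, chr16:84885471-84885770 (- strand) for Col4a2, chr5:66297296-66297595 (+ strand) for Col15a1 and chr20:11473395-11473694 (+ strand) for Col18a1.
Col4a1: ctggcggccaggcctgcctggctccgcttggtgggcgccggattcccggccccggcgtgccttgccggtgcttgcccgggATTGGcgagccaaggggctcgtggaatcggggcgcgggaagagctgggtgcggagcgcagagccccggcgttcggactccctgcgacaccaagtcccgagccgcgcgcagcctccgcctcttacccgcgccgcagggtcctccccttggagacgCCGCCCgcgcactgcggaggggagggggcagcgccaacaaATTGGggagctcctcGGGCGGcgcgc
Col4a2: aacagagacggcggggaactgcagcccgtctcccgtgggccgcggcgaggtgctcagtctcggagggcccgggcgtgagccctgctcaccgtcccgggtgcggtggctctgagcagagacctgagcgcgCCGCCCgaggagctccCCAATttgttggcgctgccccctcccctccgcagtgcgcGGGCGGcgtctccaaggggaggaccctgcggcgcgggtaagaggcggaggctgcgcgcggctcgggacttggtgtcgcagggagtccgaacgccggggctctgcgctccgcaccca
Col15a1: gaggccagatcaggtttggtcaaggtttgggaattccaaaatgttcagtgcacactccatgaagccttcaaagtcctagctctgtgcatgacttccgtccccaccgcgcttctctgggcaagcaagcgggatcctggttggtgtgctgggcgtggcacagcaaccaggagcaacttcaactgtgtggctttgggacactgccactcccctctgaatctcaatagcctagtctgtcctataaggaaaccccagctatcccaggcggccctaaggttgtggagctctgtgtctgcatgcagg
Col18a1: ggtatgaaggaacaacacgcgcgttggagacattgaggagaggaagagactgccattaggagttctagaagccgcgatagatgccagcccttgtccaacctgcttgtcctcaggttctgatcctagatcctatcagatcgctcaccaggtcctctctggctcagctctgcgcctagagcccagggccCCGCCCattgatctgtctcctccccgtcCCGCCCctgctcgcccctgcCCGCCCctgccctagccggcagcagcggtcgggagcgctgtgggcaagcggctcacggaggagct

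The Col4a1 and Col4a2 windows share 176 bases, identical when 1 is read on the opposite strand, and their start sites lie 77 bases apart. The Col4a1 window held 2 GC boxes and 2 CCAAT matches and the Col4a2 window 2 and 1, the Col18a1 window held 3 GC boxes and no CCAAT match, and the Col15a1 window held none of the 3 motifs. For 31 of the 40 symbols the table held 34 windows, of which 19 had a GC box (55.9%, beside 33.1% of 33469 promoters), 11 a CCAAT match (32.4%, beside 37.5%) and 4 a TATA box (11.8%, beside 14.2%). A match describes only the letters of the window.

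Col4a2 (ENSRNOG00000023972) and Col4a1 (ENSRNOG00000016281) encode the chains of the most widespread type IV network. Col4a2 stood at 279 RPKM with miR-199a-3p, 314 with miR-590-3p, 268 with miR-373-3p, 294 with miR-302d-3p, 236 with miR-33b* and 324 with miR-1825, against 339 RPKM with cel-miR-67. Col4a1 stood at 181 RPKM with miR-199a-3p, 206 with miR-590-3p, 207 with miR-373-3p, 222 with miR-302d-3p, 186 with miR-33b* and 190.4 with miR-1825, against 239 RPKM with cel-miR-67. Both were highest with cel-miR-67 with the deposited values, although scaling to all listed reads put Col4a2 above cel-miR-67 with miR-199a-3p, miR-302d-3p and miR-1825, and Col4a1 with miR-302d-3p. Their log2 changes were small, between -0.52 and -0.06 for Col4a2 and between -0.40 and -0.11 for Col4a1. The RPKM ratio of Col4a1 to Col4a2 was 0.651 with miR-199a-3p, 0.658 with miR-590-3p, 0.771 with miR-373-3p, 0.755 with miR-302d-3p, 0.792 with miR-33b* and 0.588 with miR-1825, against 0.707 with cel-miR-67, lowest with miR-1825 and highest with miR-33b*.

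The other measured type IV chains, which are known for the networks of kidney, lung and smooth muscle, differed from this pair. Col4a5 (ENSRNOG00000018951) stood at 75.5 RPKM with miR-199a-3p, 72.7 with miR-590-3p, 82.2 with miR-373-3p, 88.5 with miR-302d-3p, 70.3 with miR-33b* and 79.3 with miR-1825, against 63.0 RPKM with cel-miR-67. It was lowest with cel-miR-67 under each scaling tried, with log2 changes of 0.16 (miR-33b*) to 0.48 (miR-302d-3p). Col4a4 (ENSRNOG00000014851) stood at 29.0 RPKM with miR-199a-3p, 21.3 with miR-590-3p, 29.0 with miR-373-3p, 27.1 with miR-302d-3p, 22.5 with miR-33b* and 17.4 with miR-1825, against 35.3 RPKM with cel-miR-67. It was highest with cel-miR-67, except that scaling to all listed reads put miR-199a-3p above it, and lowest with miR-1825, with a log2 change of -0.98. Col4a6 was low, at 4.38 RPKM (miR-373-3p) to 7.32 RPKM (miR-33b*) after the miRNAs, against 5.50 RPKM with cel-miR-67.

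Col15a1 and Col18a1 encode the multiplexins, basement membrane collagens with interrupted triple helices, of which type XVIII is the source of the fragment endostatin. Col15a1 (ENSRNOG00000039197) stood at 13.3 RPKM with miR-199a-3p, 13.1 with miR-590-3p, 8.76 with miR-373-3p, 6.84 with miR-302d-3p, 10.2 with miR-33b* and 11.5 with miR-1825, against 21.6 RPKM with cel-miR-67. Every miRNA library was below cel-miR-67, miR-302d-3p lowest and miR-373-3p next, and this held under each scaling tried. The log2 change was -0.66 with miR-199a-3p, -0.68 with miR-590-3p, -1.21 with miR-373-3p, -1.53 with miR-302d-3p, -1.01 with miR-33b* and -0.86 with miR-1825. The log2 ratio of read rates with miR-302d-3p was -1.66, with an interval of -1.77 to -1.55 (exact, 95%, counting error only). No other measured member was at least 1.5-fold lower after every miRNA.

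Col18a1 (ENSRNOG00000001229) stood at 18.7 RPKM with miR-199a-3p, 17.8 with miR-590-3p, 32.8 with miR-373-3p, 39.0 with miR-302d-3p, 30.7 with miR-33b* and 23.5 with miR-1825, against 20.0 RPKM with cel-miR-67. It was highest with miR-302d-3p, next with miR-373-3p and then with miR-33b*, and slightly below cel-miR-67 with miR-590-3p and miR-199a-3p, the last turning above it when scaled to all listed reads. The log2 change was 0.93 with miR-302d-3p, 0.68 with miR-373-3p and 0.59 with miR-33b*. The RPKM ratio of Col15a1 to Col18a1 was 0.714 with miR-199a-3p, 0.735 with miR-590-3p, 0.267 with miR-373-3p, 0.175 with miR-302d-3p, 0.332 with miR-33b* and 0.487 with miR-1825, against 1.08 with cel-miR-67. The cel-miR-67 library was the only 1 with more Col15a1 than Col18a1, and the ratio, which no scaling of libraries alters, was lowest with miR-302d-3p and miR-373-3p.

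**Figure D3:**
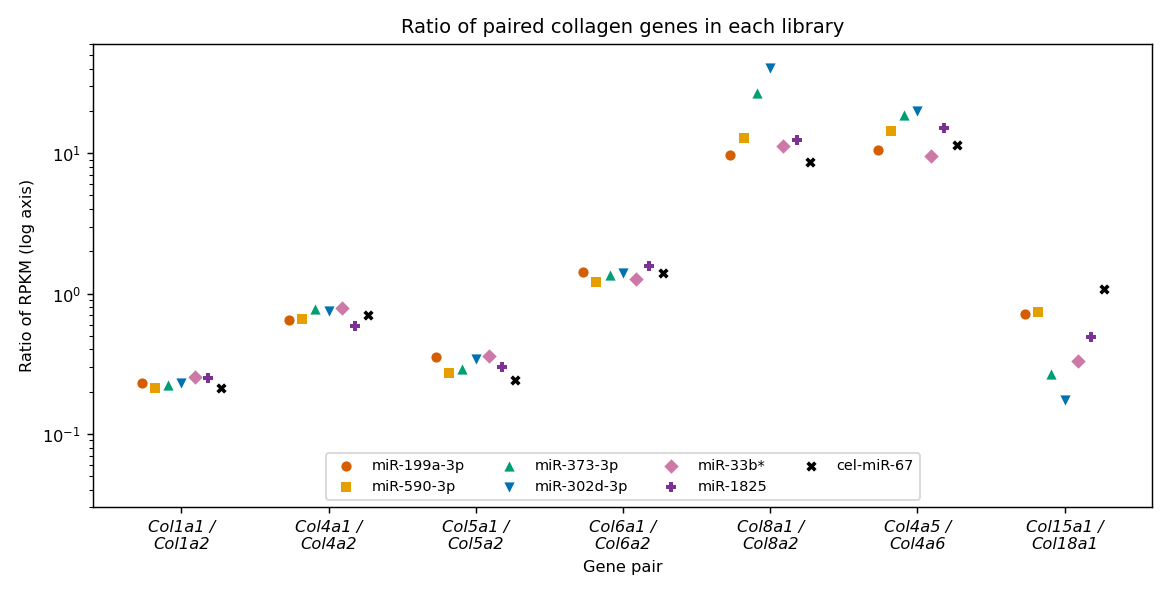
RPKM ratios of paired collagen chains in each of the 7 libraries on a log axis, the 6 miRNA libraries first and cel-miR-67 last. The ratio of Col15a1 to Col18a1 is 0.175 with miR-302d-3p and 1.08 with cel-miR-67, while Col1a1 over Col1a2 stays between 0.211 and 0.253.

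The 8 measured members outside these classes held the widest differences. Their median log2 change was -0.18 with miR-199a-3p, -0.31 with miR-590-3p, -0.39 with miR-373-3p, -0.68 with miR-302d-3p, -0.36 with miR-33b* and -0.21 with miR-1825, and with scaling to all listed reads it turned to 0.11 with miR-199a-3p and was below 0 after the other 5. Type VI collagen forms beaded filaments that link cells to fibrils and is a main collagen of the muscle cell surface. Col6a1 (ENSRNOG00000001249) stood at 65.1 RPKM with miR-199a-3p, 54.4 with miR-590-3p, 47.0 with miR-373-3p, 41.5 with miR-302d-3p, 53.8 with miR-33b* and 67.9 with miR-1825, against 78.4 RPKM with cel-miR-67. Col6a2 (ENSRNOG00000001254) stood at 45.9 RPKM with miR-199a-3p, 44.9 with miR-590-3p, 34.7 with miR-373-3p, 29.8 with miR-302d-3p, 42.8 with miR-33b* and 43.6 with miR-1825, against 56.3 RPKM with cel-miR-67. Both were highest with cel-miR-67 and lowest with miR-302d-3p, with log2 changes there of -0.90 for Col6a1 and -0.89 for Col6a2, although scaling to all listed reads put both above cel-miR-67 with miR-199a-3p. Their RPKM ratio, Col6a1 over Col6a2, was 1.21 (miR-590-3p) to 1.56 (miR-1825), against 1.39 with cel-miR-67. Col6a3, the third chain of the filament, is outside the rule and stood at 18.7 RPKM with miR-199a-3p, 15.0 with miR-590-3p, 14.3 with miR-373-3p, 12.2 with miR-302d-3p, 15.6 with miR-33b* and 14.0 with miR-1825, against 19.0 RPKM with cel-miR-67. Its log2 change was -0.59 with miR-302d-3p, the lowest of the 6.

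Col12a1, Col14a1, Col16a1 and Col9a3 belong to the fibril-associated collagens, which decorate fibrils and do not form them. Col14a1 (ENSRNOG00000026415) stood at 58.1 RPKM with miR-199a-3p, 43.8 with miR-590-3p, 65.3 with miR-373-3p, 55.7 with miR-302d-3p, 33.4 with miR-33b* and 26.2 with miR-1825, against 85.0 RPKM with cel-miR-67. It was highest with cel-miR-67 under each scaling tried and lowest with miR-1825 and miR-33b*, with a log2 change of -1.66 with miR-1825 and -1.32 with miR-33b*. The ratio of read rates was -1.70, with an interval of -1.75 to -1.65 on the log2 scale with miR-1825 (exact, 95%, counting error only). Col12a1 (ENSRNOG00000058470) stood at 20.0 RPKM with miR-199a-3p, 23.3 with miR-590-3p, 14.8 with miR-373-3p, 11.3 with miR-302d-3p, 19.4 with miR-33b* and 40.5 with miR-1825, against 19.9 RPKM with cel-miR-67. Here miR-1825 was the high library and miR-302d-3p and miR-373-3p the low ones, with log2 changes of 0.99 with miR-1825, -0.77 with miR-302d-3p and -0.41 with miR-373-3p. The miR-33b* library was level with cel-miR-67 for Col12a1, a little below it as deposited and above it with the scalings to listed reads.

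Col16a1 (ENSRNOG00000031475) stood at 10.5 RPKM with miR-199a-3p, 12.9 with miR-590-3p, 10.6 with miR-373-3p, 11.3 with miR-302d-3p, 15.7 with miR-33b* and 13.7 with miR-1825, against 6.77 RPKM with cel-miR-67. It was lowest with cel-miR-67 under each scaling tried, with log2 changes of 0.57 (miR-199a-3p) to 1.10 (miR-33b*). The ratio of read rates with miR-33b* was 1.21, with an interval of 1.09 to 1.33 on the log2 scale (exact, 95%, counting error only). Col9a3 (ENSRNOG00000009531), a chain of cartilage type IX collagen, stood at 0.507 RPKM with miR-199a-3p, 1.28 with miR-590-3p, 1.45 with miR-373-3p, 2.44 with miR-302d-3p, 4.17 with miR-33b* and 0.823 with miR-1825, against 0.994 RPKM with cel-miR-67. It was low throughout and highest with miR-33b*, with a log2 change of 1.37 with miR-33b* and 0.79 with miR-302d-3p, and had the widest range of the 23 members, 1.78 on the log2 scale. Col9a3 stood below cel-miR-67 with miR-199a-3p and miR-1825.

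Type VIII collagen forms hexagonal networks under endothelium and in vessel walls. Col8a1 (ENSRNOG00000039668) stood at 17.9 RPKM with miR-199a-3p, 14.2 with miR-590-3p, 19.7 with miR-373-3p, 17.5 with miR-302d-3p, 14.0 with miR-33b* and 15.2 with miR-1825, against 17.8 RPKM with cel-miR-67. Col8a2 (ENSRNOG00000010841) stood at 1.83 RPKM with miR-199a-3p, 1.10 with miR-590-3p, 0.731 with miR-373-3p, 0.433 with miR-302d-3p, 1.24 with miR-33b* and 1.22 with miR-1825, against 2.05 RPKM with cel-miR-67. Col8a1 differed little between libraries, with log2 changes of -0.33 to 0.13, and its small value with miR-302d-3p changed sign with scaling to all listed reads. Col8a2 was lowest with miR-302d-3p and miR-373-3p and highest with cel-miR-67, except that scaling to all listed reads put miR-199a-3p above it. The log2 change of Col8a2 with miR-302d-3p was -1.09, and the log2 ratio of read rates, with no pseudocount, was -2.24, with an interval of -2.68 to -1.83 (exact, 95%, counting error only). The RPKM ratio of Col8a1 to Col8a2 was 9.74 with miR-199a-3p, 12.9 with miR-590-3p, 26.9 with miR-373-3p, 40.4 with miR-302d-3p, 11.2 with miR-33b* and 12.5 with miR-1825, against 8.70 with cel-miR-67, highest with miR-302d-3p and next with miR-373-3p.

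The 18 members that did not reach a mean of 1 RPKM comprised 3 fibrillar collagens, Col2a1, Col11a2 and Col24a1, and 15 of the other class. Just above the limit stood Col8a2 with a mean of 1.23 RPKM, and just below it Col26a1 with 0.975 and Col19a1 with 0.899 RPKM. Col26a1 stood at 1.20 RPKM with miR-199a-3p, 0.566 with miR-590-3p, 0.880 with miR-373-3p, 0.957 with miR-302d-3p, 2.73 with miR-33b* and 0.405 with miR-1825, against 0.0870 RPKM with cel-miR-67, where it rests on 6 reads. Col19a1, a fibril-associated collagen, stood at 1.36 RPKM with miR-199a-3p, 0.773 with miR-590-3p, 0.625 with miR-373-3p, 0.229 with miR-302d-3p, 0.145 with miR-33b* and 0.804 with miR-1825, against 2.35 RPKM with cel-miR-67. Col26a1 was thus higher after every miRNA, highest with miR-33b*, and Col19a1 lower after every miRNA, lowest with miR-33b* and miR-302d-3p. The other 16 did not exceed 0.721 RPKM or 110 reads in any library. The highest value was 0.721 RPKM for Col6a6, 0.615 for Col24a1, 0.586 for Col13a1, 0.452 for Col7a1, 0.384 for Col10a1 and 0.354 for Col17a1. It was 0.196 and 0.218 RPKM for the entries of Col23a1, 0.179 for Col9a2, 0.149 for Col11a2, 0.142 for Col20a1 and 0.137 for Col22a1. The lowest maxima were 0.124 RPKM for Col28a1, 0.123 for Col25a1, 0.0862 for Col2a1 and 0.0318 for Col6a5, and Col25a1 was the only member with 0 reads in a library, with miR-199a-3p and miR-590-3p. With 3 reads, a gene of 2 kb stands at 0.0432 to 0.0668 RPKM, so differences among the lowest of these were not detectable at this depth.

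Chains of 1 trimer had nearly constant ratios in some pairs and not in others. The RPKM ratio of Col1a1 to Col1a2 was 0.232 with miR-199a-3p, 0.214 with miR-590-3p, 0.223 with miR-373-3p, 0.231 with miR-302d-3p, 0.253 with miR-33b* and 0.250 with miR-1825, against 0.211 with cel-miR-67. It was below 1 in all 7 libraries and lowest with cel-miR-67. Col5a1 over Col5a2 was 0.355 with miR-199a-3p, 0.273 with miR-590-3p, 0.292 with miR-373-3p, 0.341 with miR-302d-3p, 0.357 with miR-33b* and 0.298 with miR-1825, against 0.243 with cel-miR-67, and again cel-miR-67 was lowest. Col4a5 over Col4a6 was 10.5 with miR-199a-3p, 14.3 with miR-590-3p, 18.8 with miR-373-3p, 20.0 with miR-302d-3p, 9.60 with miR-33b* and 15.1 with miR-1825, against 11.5 with cel-miR-67, highest with miR-302d-3p and miR-373-3p. Col1a2 over Col3a1, chains of different fibrils, was 0.754 (miR-373-3p) to 1.02 (miR-33b*), against 0.870 with cel-miR-67.

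Libraries differed in which members they held highest or lowest. As deposited, miR-302d-3p was the lowest of the 7 libraries for 8 of the 23 members (34.8%), beside 15.1% of all measured genes, and miR-33b* was the highest for 5, beside 12.9%. With scaling to all listed reads miR-302d-3p was lowest for 6, beside 7.93%, Col1a2 and Col5a2 no longer among them, and miR-33b* was highest for 3, beside 7.68%. The range over the 7 libraries had a median of 0.89 on the log2 scale for the 23 members and 0.55 for all measured genes. Among the 21 pairs of libraries, the median absolute log2 difference of the members was smallest between miR-590-3p and miR-1825, 0.17, beside 0.18 for all genes. It was also 0.17 between miR-302d-3p and miR-373-3p, beside 0.10 for all genes, and no member differed 2-fold between these libraries. The same held for several other pairs, among them miR-590-3p with miR-1825 and miR-199a-3p with cel-miR-67. The widest pair was miR-302d-3p and cel-miR-67, at 0.48.

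The genes that make, trim and bind collagen were described by lists of known function. In a single library 0.762% to 2.11% of all measured genes were at least 2-fold lower and 1.04% to 2.00% higher. At such shares lists this short would hold few 2-fold changes or none. Of 15 enzymes of hydroxylation and glycosylation all 15 were measured, and 1 pair of a gene and a library passed 2-fold, Colgalt2 with miR-33b*, with a log2 change of 1.02. The median log2 change of this list was 0.04 with miR-199a-3p, -0.13 with miR-590-3p, -0.02 with miR-373-3p, -0.02 with miR-302d-3p, -0.04 with miR-33b* and -0.14 with miR-1825. P4ha3, a prolyl 4-hydroxylase subunit, gave the highest value of the enzymes averaging 5 RPKM or more, 0.88 with miR-199a-3p, and P3h3, of the prolyl 3-hydroxylase family, the lowest, -0.86 with miR-33b*. The 9 measured genes of collagen folding and export had no 2-fold change. Fkbp14, a folding enzyme, was highest at 0.61 with miR-590-3p, and Hspa5, a general chaperone of the endoplasmic reticulum, lowest at -0.75 with miR-33b*. The median of the folding list was 0.26 with miR-199a-3p, -0.21 with miR-590-3p, -0.15 with miR-373-3p, 0.01 with miR-302d-3p, -0.05 with miR-33b* and -0.20 with miR-1825.

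Outside the cell, the median changes of the cleavage and cross-linking lists were mostly larger in size than those of the hydroxylation and folding lists. Pcolce, which enhances removal of the procollagen C-terminal end, stood at 183 RPKM with miR-199a-3p, 110.0 with miR-590-3p, 101 with miR-373-3p, 101 with miR-302d-3p, 85.6 with miR-33b* and 87.4 with miR-1825, against 139 RPKM with cel-miR-67. Its log2 change was 0.40 with miR-199a-3p and -0.69 with miR-33b*, the highest and lowest values among cleavage genes averaging 5 RPKM or more, and none of the 4 measured passed 2-fold. Lox, lysyl oxidase, which starts the cross-linking of collagen and elastin, stood at 8.81 RPKM with miR-199a-3p, 12.4 with miR-590-3p, 6.70 with miR-373-3p, 4.02 with miR-302d-3p, 12.9 with miR-33b* and 21.2 with miR-1825, against 12.8 RPKM with cel-miR-67. It was lowest with miR-302d-3p and miR-373-3p and highest with miR-1825, with log2 changes of -1.46 with miR-302d-3p, -0.84 with miR-373-3p and 0.69 with miR-1825. Lox with miR-302d-3p was the only 2-fold change among the 5 measured cross-linking enzymes. The list medians were 0.02 with miR-199a-3p, -0.32 with miR-590-3p, -0.30 with miR-373-3p, -0.41 with miR-302d-3p, -0.61 with miR-33b* and -0.48 with miR-1825 for cleavage, and -0.41 with miR-199a-3p, -0.14 with miR-590-3p, -0.54 with miR-373-3p, -0.43 with miR-302d-3p, -0.20 with miR-33b* and 0.24 with miR-1825 for cross-linking.

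Among the 6 measured collagen receptors none passed 2-fold. Itga1, the integrin alpha 1 chain, gave both the lowest value of the receptors averaging 5 RPKM or more, -0.85 with miR-199a-3p, and the highest, 0.51 with miR-302d-3p. The receptor median was -0.01 with miR-199a-3p, -0.15 with miR-590-3p, -0.22 with miR-373-3p, -0.31 with miR-302d-3p, -0.25 with miR-33b* and -0.27 with miR-1825. Of the proteins that bind fibrils, 9 genes in 11 entries were measured, and 5 pairs of an entry and a library were at least 2-fold lower and 0 higher. These pairs were 2 with miR-373-3p, beside 1.87% of all measured genes, 2 with miR-302d-3p, beside 2.11%, and 1 with miR-33b*, beside 1.24%. Aspn, the small proteoglycan asporin, made up 4 of these with its 2 entries, of which the first stood at 14.8 RPKM with miR-199a-3p, 13.2 with miR-590-3p, 6.31 with miR-373-3p, 4.04 with miR-302d-3p, 12.2 with miR-33b* and 14.2 with miR-1825, against 23.7 RPKM with cel-miR-67. Its log2 change was -2.29 with miR-302d-3p and -1.75 with miR-373-3p. Thbs1, thrombospondin 1, was the fifth, at -1.16 with miR-33b*, and Ogn, osteoglycin, gave the highest value of the list, 0.84 with miR-199a-3p. The median of the fibril-binding list was -0.19 with miR-199a-3p, -0.44 with miR-590-3p, -0.44 with miR-373-3p, -0.54 with miR-302d-3p, -0.41 with miR-33b* and -0.28 with miR-1825. Prelp, a proteoglycan with a mean of 0.910 RPKM and so under the limit, was at least 2-fold lower after 4 miRNAs, namely miR-1825, miR-33b* and the pair of miR-302d-3p and miR-373-3p. Of the laminins and other basement membrane partners 11 were measured, and Lama5, a laminin alpha chain, was highest at 0.62 with miR-33b*. The median log2 change of the basement membrane partners was 0.06 with miR-199a-3p, -0.23 with miR-590-3p, -0.36 with miR-373-3p, -0.50 with miR-302d-3p, -0.51 with miR-33b* and -0.31 with miR-1825. With scaling to all listed reads the medians of the fibril-binding list and of the receptors turned above 0 with miR-199a-3p, to 0.16 for fibril binding and 0.28 for receptors. The hydroxylation list then turned to 0.16 with miR-373-3p, 0.20 with miR-302d-3p and 0.07 with miR-33b*, and the folding list to 0.05 with miR-373-3p and 0.03 with miR-33b*.

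**Figure D4:**
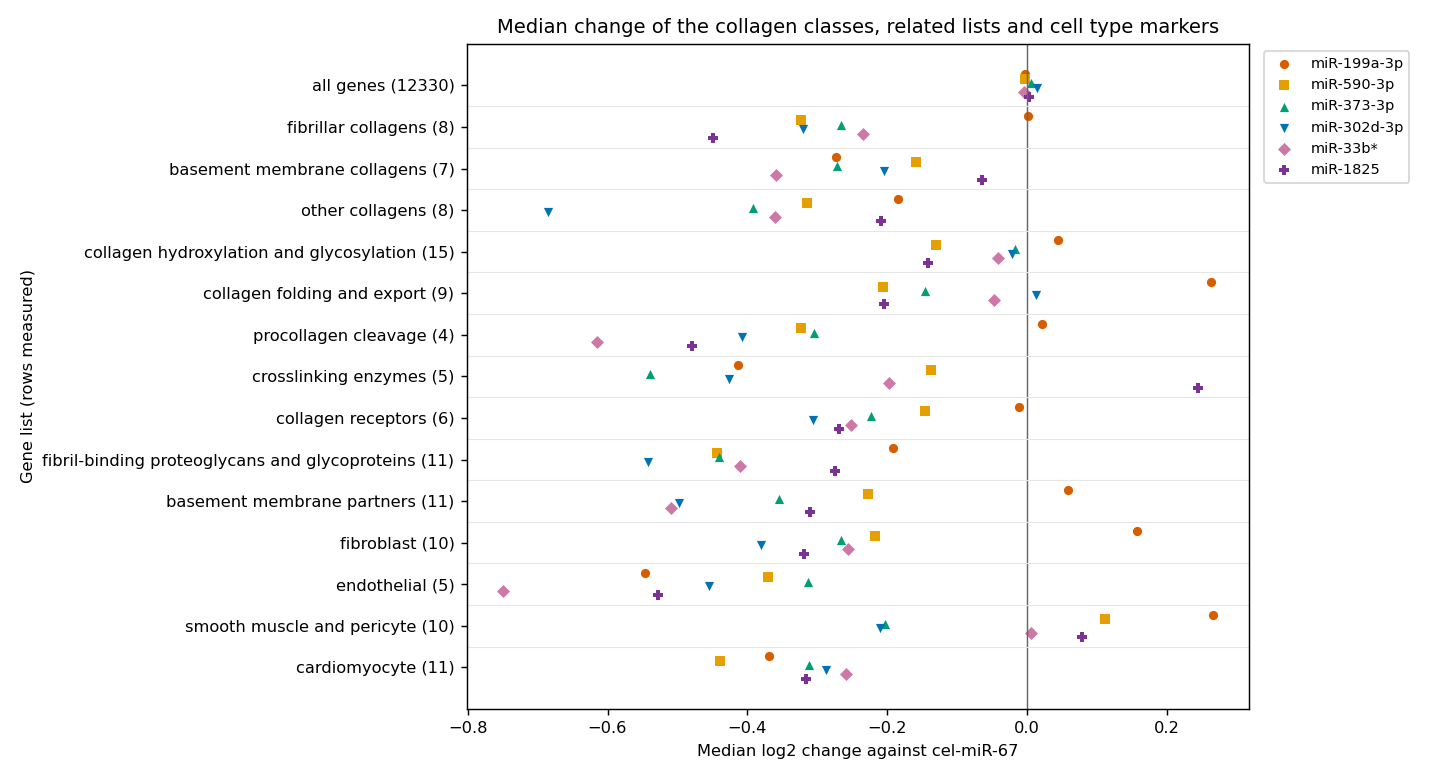
Median log2 change against cel-miR-67 of the collagen classes, the lists of related genes and the cell type markers in each of the 6 miRNA libraries, with the median of all measured genes at the top. Most collagen and matrix lists lie left of 0 with the deposited scaling. In most lists miR-199a-3p lies farthest to the right, the fibrillar class and the fibroblast markers among them. Exceptions below the row of all genes are the basement membrane class, the cross-linking enzymes, and the endothelial and cardiomyocyte markers.

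Markers of the cells that can make collagen also differed between libraries. The summed level of the 11 cardiomyocyte markers with a value, of 12 listed, was 18414 to 22399 RPKM after the 6 miRNAs, against 23851 RPKM with cel-miR-67, far above every other marker list. Of 12 fibroblast markers 10 were measured, with a summed level of 776 to 1251 RPKM after the 6 miRNAs, against 1247 RPKM with cel-miR-67. The fibroblast median log2 change was 0.16 with miR-199a-3p, -0.22 with miR-590-3p, -0.27 with miR-373-3p, -0.38 with miR-302d-3p, -0.26 with miR-33b* and -0.32 with miR-1825. Medians below 0 were not particular to fibroblast markers. They were -0.44 to -0.26 for cardiomyocyte, -0.75 to -0.31 for endothelial and -0.44 to -0.12 for epicardial markers. Smooth muscle and pericyte markers had medians of -0.21 to 0.27, and macrophage and leukocyte markers of -0.26 to 0.14. Of 10 endothelial markers 5 were measured, with a summed level of 16.5 to 20.0 RPKM after the 6 miRNAs, against 26.3 RPKM with cel-miR-67, and all 6 miRNA libraries were below cel-miR-67. The smooth muscle and pericyte markers, 10 of 11 measured, summed to 1277 to 1936 RPKM after the 6 miRNAs, against 1428 RPKM with cel-miR-67. The epicardial markers, 6 of 7 measured, summed to 21.7 to 27.3 RPKM after the 6 miRNAs, against 30.9 RPKM with cel-miR-67, and the macrophage and leukocyte markers, 7 of 10 measured, to 15.5 to 22.0 RPKM after the 6 miRNAs, against 23.7 RPKM with cel-miR-67. Of the 5 Schwann cell markers 1 was measured. No marker with a value was at 0 in any library, and Dcn, Lum and Ddr2 stand both in the fibroblast list and in the lists of collagen partners. The part of these cell types in the collagen values was not tested, and in bulk RNA fewer cells of a type and less RNA per cell cannot be told apart.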

How the data were processed

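The authors deposited RPKM values for 17141 genes in 7 libraries and, per the file headers, ratios over the cel-miR-67 column. The submitters' processing notes name STAR 2.7 and edgeR as tools and Rnor_6.0 as build, without saying what each did. Not given in the sources used here are the counter, strand setting, annotation and filters. The single-sample files equalled the series table in all 7 cases, and the deposited ratios were not used.

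Collagen genes were the protein-coding entries with a symbol of collagen form. The members and lists were chosen with earlier results of these data known, Col15a1 among them, and are no independent support. Changes were log2 of RPKM plus a pseudocount of 1 over the same for cel-miR-67. Counts ran over 12330 genes whose 7-library mean reached 1 RPKM, with limits of 2-fold per library and 1.5-fold in all 6 libraries. With 1 library per group there was no test.

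RPKM values are whole reads divided by gene length and by a library size, which the listed reads exceeded in some libraries. Lengths and sizes that give whole reads were found for 100% of genes, within 0.002 reads (0.05 for genes with many reads), and the median length was 2227 bases. These reads gave exact (Clopper-Pearson) 95% intervals of ratios of read rates, which cover counting error only. The steps were tested on simulated data.

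Named with all values were members with a mean of at least 10 RPKM or a 2-fold change. Other measured members were named with their range and the rest with their highest value, except Col26a1 and Col19a1, given in full as the nearest to the limit. From each related list came the highest and lowest change among genes averaging 5 RPKM or more, and any gene past 2-fold in 3 or more libraries. Colgalt2 was named to identify a count, and 1 gene of the basement membrane partners is not reported here. A planned ratio with Col6a3 was not computed, since that gene falls outside the rule. Promoter windows came from RefSeq on GRCr8, a build that differs from that of the files, and were matched by symbol. Python 3.11.15, numpy 2.4.6, pandas 2.3.3, scipy 1.17.1 and matplotlib 3.10.9 were used. Alternatives were other pseudocounts, filters, scalings and a different reference, and leaving out each miRNA library.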

Additional observations from a re-analysis of the deposited data

How the results depend on the processing

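No paired analysis was possible because each group holds 1 library. The median log2 change of the collagen genes kept its direction under both other filters. The other pseudocounts could not test this, since a pseudocount never changes the direction of a value. Centring on protein-coding genes was hardly a test either, since the medians it sets to 0 were already close to 0. Scaling to all listed reads gave medians of 0.13 with miR-199a-3p, -0.11 with miR-373-3p, -0.075 with miR-302d-3p, -0.22 with miR-33b* and -0.090 with miR-1825; the scaling itself raises the median of all genes, as given above. Set against the other 5 miRNA libraries, averaged, in place of cel-miR-67, the medians were 0.29 with miR-199a-3p, -0.068 with miR-590-3p, -0.12 with miR-373-3p, -0.15 with miR-302d-3p, -0.037 with miR-33b* and -0.011 with miR-1825. Without a filter, over all 41 genes, they were -0.12 with miR-590-3p, -0.059 with miR-373-3p, -0.025 with miR-302d-3p, -0.033 with miR-33b* and -0.10 with miR-1825, with the 18 genes under the limit added. A pseudocount of 5 gave -0.21 with miR-590-3p and -0.21 with miR-33b*.

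Members at least 1.5-fold lower in all 6 libraries numbered 1 as reported and 0 with a pseudocount of 5 or scaling to all listed reads. Members at least 1.5-fold higher in all 6 numbered 0 as reported and 1 with a pseudocount of 0.1, with scaling to all listed reads, and with scaling to listed reads without mitochondrial genes, which was chosen after seeing the data. Pairs of a member and a library at least 2-fold higher numbered 2 as reported, 1 with a minimum mean of 5 RPKM, 4 without a filter, 5 with a pseudocount of 0.1, 0 with a pseudocount of 5 and 5 with scaling to all listed reads. Pairs at least 2-fold lower numbered 7 as reported, 3 with a pseudocount of 5 and 2 against the other 5 miRNA libraries. The same counts over all genes were not made for these other settings. Scaling to all listed reads raised the median of all genes after every miRNA, so its counts are not particular to collagens. Leaving out each miRNA library in turn gave 1 to 1 lower and 0 to 0 higher in all that were left. A gene past the limit in all 6 also passes in any 5, so these counts could rise but not fall. Among the other values, 340 moved by more than their counting interval or count limit and 848 did not. Of those that moved, 134 came with the changed reference, which measures a different quantity, and 104 with scaling to all listed reads. A pseudocount of 5 moved 47, while all 150 stayed with centring on protein-coding genes. Why single values moved was not tested. Leaving out a library could not be tried for cel-miR-67, which every change is set against. The single library per group limits every result.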
